A study of Mus musculus with 11 samples.

Results

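The mitochondrial genome of the mouse was read out in 11 bulk RNA-seq libraries of isolated pancreatic islets through the 37 genes whose symbols start with mt-, out of 55536 genes in each file. These were 13 protein genes, 2 ribosomal RNA genes and 22 transfer RNA genes, and the annotation placed all 37 on chromosome M. All mice were wild-type C57BL/6J females. Virgin mice were compared with multiparous mice (MP in the labels). The study took age-matched littermates for both, 9 weeks old at the start. The multiparous mice then went through 3 pregnancies in a row and were studied 3 weeks after the last delivery. Some mice of each kind had received S-961, a peptide that blocks the insulin receptor, at 100 nmol/kg in 2 injections per day for 3 days, and the others carry no treatment label. There were 3 virgin S-961, 4 MP S-961, 2 virgin untreated and 2 MP untreated libraries. For the S-961 libraries the study gives as many mice as there are libraries in each group. The sources used here do not give the mice behind the untreated libraries, so p-values that use them measure the spread between libraries, which may be technical in part.

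Mitochondrial DNA is a small circle that is transcribed on both strands as long precursors, and the transfer RNAs that lie between most of the other genes mark the places where the precursors are cut. The released messengers are given short poly(A) tails and are translated by the mitochondrion's own ribosomes into membrane-embedded core subunits of the respiratory chain and of the ATP synthase, while the remaining subunits come from nuclear genes. In beta cells, ATP made by this chain closes the potassium channels that hold back insulin release.

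The compactness of this genome shows at the 3′ ends of 3 of the 13 protein genes, mt-Co3, mt-Nd4 and mt-Cytb, whose annotated sequence stops at the first base of the stop codon. The tail added to the messenger supplies the missing bases. Their last 15 bases in the GENCODE M21 transcripts (GRCm38), with that T in capitals, are
mt-Co3: attgatgaggatctT
mt-Nd4: caggcctgacaataT
mt-Cytb: taaaattatatccaT
The other 10 end in a complete stop codon. Neighbouring genes also overlap: mt-Atp8 shares 43 bases with mt-Atp6, mt-Nd4l shares 7 with mt-Nd4, and mt-Nd5 shares 14 with mt-Nd6, which lies on the opposite strand. Reads in the shared bases could go to either gene, and the strand setting of the counting is not given in the sources used here. The deposited values of mt-Atp8, mt-Nd5 and mt-Nd6 were whole numbers in every library, so they show no dividing of single reads.

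A second feature of the sequence bears on every value that follows. The nuclear genome holds old insertions of mitochondrial DNA, and 16 annotated nuclear pseudogenes in the files matched a mitochondrial gene over most of their length. Of these, 10 had any count and 7 had more than 1000 counts. All 7 lie side by side on chr1:24611535-24616197, minus strand (GRCm38). The 3 with the most counts were Gm28437, Gm28661 and Gm10925, which are base-for-base copies of mt-Co3, mt-Co2 and mt-Atp6 over 783, 681 and 678 aligned bases. The first 60 bases of mt-Co3, which lies at chrM:8607-9390 on the plus strand, and of Gm28437 at chr1:24613189-24613971 on the minus strand show that no read from this stretch can tell them apart.
mt-Co3: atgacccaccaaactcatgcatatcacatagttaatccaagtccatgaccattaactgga
Gm28437: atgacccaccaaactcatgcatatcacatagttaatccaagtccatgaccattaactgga
Gm28438 differs from mt-Nd3 (chrM:9459-9806, plus strand) at 1 of 345 aligned bases, T3C, counted from the first base of mt-Nd3 with the mt-Nd3 base first. The first 60 bases are shown with that base in capitals.
mt-Nd3: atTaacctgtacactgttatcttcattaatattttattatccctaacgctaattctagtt
Gm28438: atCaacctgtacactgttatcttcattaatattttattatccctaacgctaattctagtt
Gm29216 copies only the last 492 bases of mt-Co1 (chrM:5328-6872, plus strand), with 6 differences that all fall in the first bases of the copy, here in capitals: T1056A, C1057T, A1059G, A1060G, C1062A and A1066T, counted from the first base of mt-Co1.
mt-Co1: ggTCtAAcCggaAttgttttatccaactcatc
Gm29216: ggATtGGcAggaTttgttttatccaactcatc
Gm10222 and Gm28439 match mt-Nd4l and mt-Nd4 without a difference over 294 and 876 bases. These last 4 copies were singled out after their counts were seen.

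The deposited values divide the reads between the members and these copies. Over all 11 libraries Gm28437 held 1227504 counts against 379955 on mt-Co3, Gm28661 held 1168917 against 230402 on mt-Co2, and Gm10925 held 829052 against 129656 on mt-Atp6. Gm28438 held 127459 counts against 35816 on mt-Nd3. For mt-Co1 the order was the other way, with 468069 counts on the partial copy and 3565656 on the gene. The 8 protein genes with a counted copy were the same 8 that had values that are not whole numbers, as estimated counts of shared reads can have, and the other 5 protein genes had only whole values. The share of a gene's reads that went to its copy also differed between libraries. It was 60.9% to 74.8% for mt-Nd4l in the S-961 libraries and 41.3% to 47.6% in the untreated libraries, and 12.0% to 16.4% against 4.09% to 11.2% for mt-Co1. For genes with a copy that moved a value, levels and tests are therefore also given with the copy added. The plot of percent on the copy shows this division by library.

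**Figure D1:**
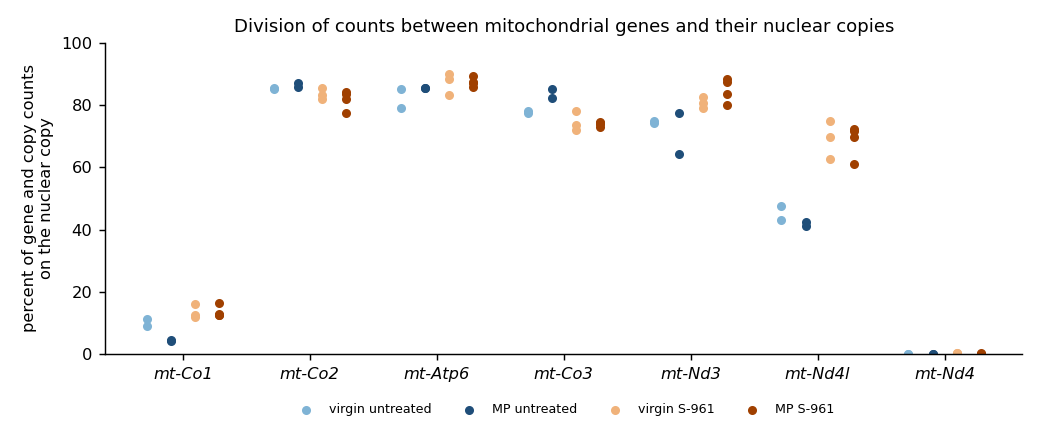
Percent of the counts of a mitochondrial gene and its nuclear copy that were on the copy (vertical axis), for 7 genes, with 1 point per library coloured by group. Most counts of mt-Co2, mt-Atp6, mt-Co3 and mt-Nd3 were on the copy in each library, few of mt-Co1 and almost none of mt-Nd4, and mt-Nd4l separates the untreated libraries (41.3% to 47.6%) from the S-961 libraries (60.9% to 74.8%).

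All 22 tRNA genes, which are 59 to 75 bases long, stood at 0 in every library. A count of 0 allows up to 3 counts, which is 0.0931 to 0.136 CPM, the count scaled to a common library size, depending on the library. This limit covers counting error only. The kit selects poly(A) RNA, and whether molecules this short could enter the libraries was not tested. The other 15 members, the 13 protein and 2 rRNA genes, had counts in every library and passed the filter on low counts in every fit.

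Before the comparisons, some properties of the libraries need to be given. Total estimated counts ran from 22028508 to 32234164 per library, with a median of 29866500. The S-961 and untreated libraries differed in much more than the members. Of 17969 genes tested, 36.6% changed in virgin islets and 37.7% in MP islets by edgeR. Summed acinar markers stood at 1685 to 12175 CPM with S-961 and at 66.1 to 146 CPM without, with all 10 markers detected in each group. Summed beta cell markers, which include Ins1 and Ins2, stood at 122728 to 233929 CPM with S-961 and at 456677 to 614380 CPM without. Alpha cell markers were lower as well, at 14150 to 24351 CPM with S-961 and 26318 to 57242 CPM without. Delta cell markers overlapped, at 1943 to 3492 CPM with S-961 and 3451 to 6345 CPM without. The islet label thus held in all libraries but their makeup differed. Whether the treated and untreated libraries were prepared together is not given in the sources used here, and treatment and any such batch cannot be told apart. In bulk tissue, fewer cells of a type and less RNA per cell cannot be told apart either. Within the groups, the library labelled MP S-961 replicate 4 had a level of Mki67, a marker of dividing cells, of 3.93 CPM against 43.5 to 93.9 in the other 3. The virgin S-961 libraries stood at 3.43, 13.8 and 3.04 CPM. By chi-square per gene, a distance between libraries, this MP library lay nearer to the virgin S-961 ones (9.78, 11.8 and 45.6). Its values against the other 3 MP S-961 libraries were 58.2, 80.3 and 95.9. The cause was not tested. The library labelled MP untreated replicate 1 had summed macrophage markers of 844 CPM against 79.0 to 219 in the other 10. Its lymphocyte markers stood at 278 against 4.74 to 41.4 and its red cell markers at 2386 against 55.9 to 706. Its Mki67 was 38.6 against 2.14 in MP untreated replicate 2. Results that rest on MP S-961 replicate 4 or MP untreated replicate 1 are given without it as well.

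Mitochondrial RNA took a larger part of the libraries with S-961. The 37 genes held 2.46% and 2.50% of all counts in the virgin untreated libraries and 3.66%, 3.43% and 2.93% in the virgin S-961 libraries. They held 2.63% and 2.69% in the MP untreated libraries and 3.21%, 2.97%, 3.37% and 3.57% in the MP S-961 libraries. Every S-961 library was above every untreated library, and virgin and MP libraries overlapped with S-961. With the nuclear copies added, the shares were 3.54% to 3.79% without and 4.18% to 4.97% with S-961, so the groups still did not overlap. No test was run on this sum.

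The insulin genes Ins1 and Ins2, whose messengers are very abundant in islets, moved the other way. They took 35.3% to 41.4% of all counts in the untreated libraries and 13.2% to 20.7% in the S-961 libraries. Of the counts on all other genes, the mitochondrial genes made up 3.79% and 3.91% in virgin untreated, 4.32%, 4.07% and 3.69% in virgin S-961, 4.11% and 4.59% in MP untreated and 3.70%, 3.59%, 3.88% and 4.27% in MP S-961 libraries. On this scale the S-961 and untreated libraries overlapped in both virgin and MP islets, and the mean was higher with S-961 in virgin islets (4.03% ± 0.32, SD, n = 3, against 3.85% ± 0.08, n = 2) and lower in MP islets (3.86% ± 0.30, n = 4, against 4.35% ± 0.34, n = 2). The plot of shares by library gives both scales beside the insulin share.

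**Figure D2:**
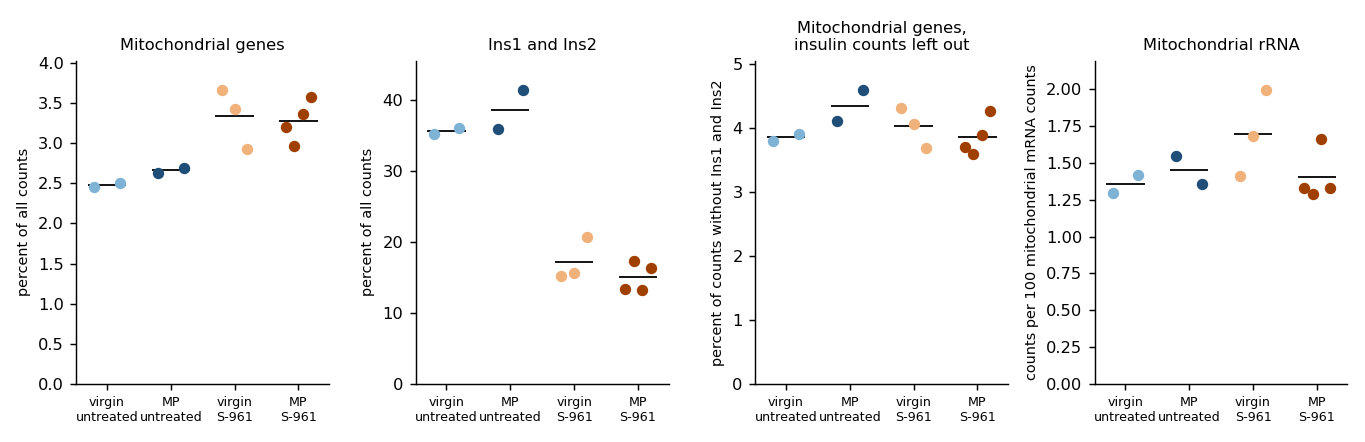
Points are the 11 libraries by group and lines the group means, for the percent of all counts on mitochondrial genes, the percent of all counts on Ins1 and Ins2, the percent of counts on mitochondrial genes with the insulin counts left out, and mitochondrial rRNA counts per 100 mitochondrial mRNA counts. The untreated and S-961 libraries separate in the first panel, at 2.46% to 2.69% and 2.93% to 3.66%, and in the second, and overlap in the others.

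Levels of different genes were compared per kilobase of gene. With the copies added, mt-Co1, mt-Co2 and mt-Co3, the core subunits of cytochrome c oxidase (complex IV), were at the top in each group, with medians over all libraries of 7996, 6242 and 6025 CPM per kilobase. mt-Atp6, the proton channel subunit of the ATP synthase, followed at 4378, and mt-Cytb, the cytochrome of complex III, at 4065. The 7 genes for subunits of complex I, the NADH dehydrogenase, came lower: mt-Nd1 had a median of 2810, mt-Nd4 of 2307, mt-Nd2 of 1669, mt-Nd5 of 1584, mt-Nd6 of 1329, mt-Nd3 of 1189 and mt-Nd4l of 1175 CPM per kilobase. mt-Atp8 lay among them at 1294 over all libraries. In the untreated groups it was above each of them, with medians of 2609 in virgin and 4509 in MP islets. There mt-Cytb (4711 and 5099) was also above mt-Atp6 (3582 and 3423). The ranges of mt-Co1, mt-Co2, mt-Co3 and mt-Atp6 over the 11 libraries each overlapped that of the next gene down. The same held for mt-Nd1, mt-Nd4, mt-Nd2, mt-Nd5, mt-Nd6, mt-Atp8 and mt-Nd3. The order among such neighbours is therefore not fixed. As deposited, without the copies, mt-Co2, mt-Co3 and mt-Atp6 fell to medians below mt-Nd1 in each group.

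The 2 rRNA genes were lowest, with medians of 209 CPM per kilobase for mt-Rnr2, the large ribosomal RNA, and 114 for mt-Rnr1, the small one. They lie next to the start of the main transcript, and the rRNA took only 0.0314% to 0.0572% of all counts, in libraries selected for poly(A). For every 100 counts on mitochondrial mRNA there were 1.29 to 1.99 on rRNA, and the 4 groups overlapped in this ratio.

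**Figure D3:**
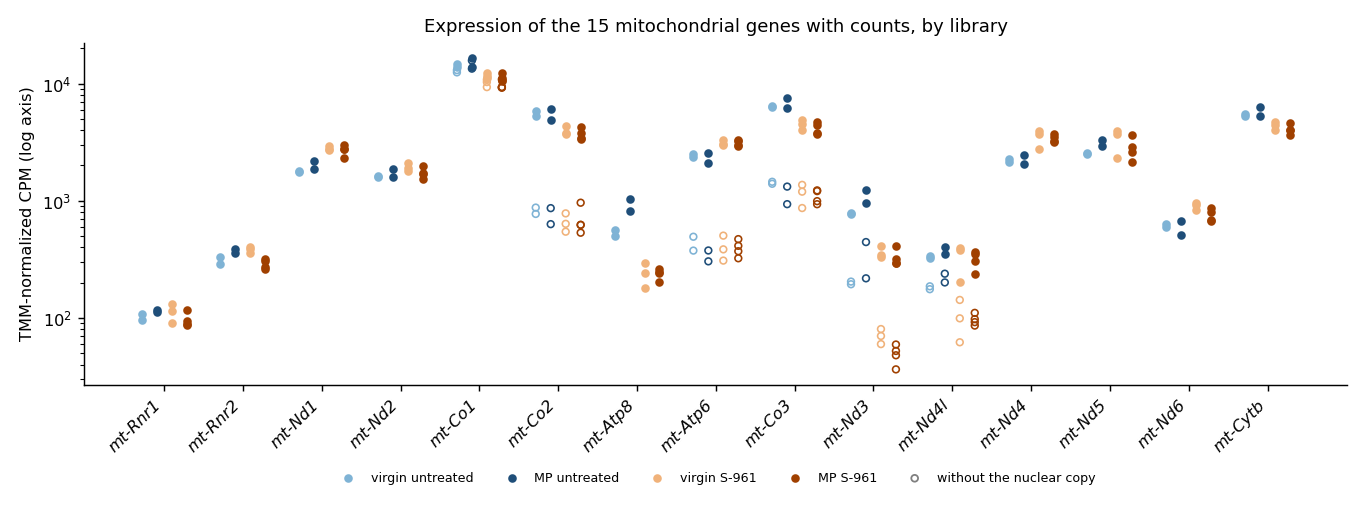
TMM-normalized CPM (log axis) of the 15 counted mitochondrial genes, with 1 point per library coloured by group; filled points have the nuclear copy added where there is one, and open points are the same genes without it. The untreated libraries lie above the S-961 libraries for mt-Atp8 and mt-Nd3 and below them in each kind of mouse for mt-Nd1 and mt-Nd4.

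The S-961 libraries were made to see how islets of multiparous mice meet a raised demand for insulin. MP and virgin libraries were compared by their levels under S-961, and whether the response to S-961 differed is the interaction given further on. No mitochondrial gene passed the test. None of the 15 tested members passed an adjusted p of 0.05 by edgeR, and 0% of the 16752 genes tested did, in either direction. With the copies summed, again 0 members and 0% of genes were called. DESeq2 called 0 members and 2.21% of all genes. At an unadjusted p under 0.05 edgeR had 2 members and 1614 of all genes. The median log2 fold change of the 13 protein genes was -0.06, and the single values ran from -0.51 to 0.07. When MP S-961 replicate 4 was left out, edgeR called 447 genes higher and 78 lower in MP islets, and none was mitochondrial.

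The 2 members with an unadjusted p under 0.05 were mt-Rnr2 and mt-Nd3. mt-Rnr2 stood at 361, 387 and 404 CPM in virgin S-961 and at 271, 263, 309 and 321 in MP S-961 libraries, so all 4 MP libraries lay below the 3 virgin ones. Its log2 fold change was -0.39 ± 0.13 (SE), with an adjusted p of 0.372 by edgeR and 0.0632 by DESeq2. With CPM scaled within the libraries of this comparison, it was the only member whose groups did not overlap, against 3.56% of all genes below and 5.27% above. mt-Nd3, a small complex I subunit, stood at 70.2, 59.8 and 80.4 CPM in virgin S-961 and at 59.3, 48.0, 36.4 and 52.3 in MP S-961 libraries, with a log2 fold change of -0.51 ± 0.18 and an adjusted p of 0.387. On the printed scale the highest MP library, at 59.3 CPM, lay just below the lowest virgin one, at 59.8. Scaled within this comparison, the groups overlapped. With its copy added mt-Nd3 had a log2 fold change of -0.13 ± 0.17.

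Without S-961, parity was compared between 2 MP and 2 virgin libraries. The MP libraries had more mt-Atp8 and mt-Nd3, but by edgeR 0 members and 0% of 15813 genes passed, in either direction, and the same held with the copies summed. At an unadjusted p under 0.05 there were 2 members, mt-Atp8 and mt-Nd4l, and 889 of all genes. DESeq2 called 2 members higher, mt-Atp8 and mt-Nd5, against 0.148% of all genes. With CPM scaled within the libraries of this comparison, 9 of the 15 members were above in both MP libraries and 2, mt-Atp6 and mt-Co3, below. Of all genes, 18.2% were above and 19.5% below. Scaled over all 11 libraries, 2 of these members overlapped. They were mt-Nd2 (1580 and 1862 CPM in MP against 1616 and 1602 in virgin) and mt-Atp6 (304 and 376 against 493 and 375). The median log2 fold change of the protein genes was 0.12. Markers of other cell types differed as well. Summed alpha cell markers stood at 26318 and 38825 CPM in the MP and at 50494 and 57242 CPM in the virgin untreated libraries, and delta cell markers at 3451 and 4099 CPM against 5353 and 6345. Their part in the differences, and that of the immune and red cell markers in MP untreated replicate 1, was not tested.

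mt-Atp8, a short subunit that anchors part of the ATP synthase, stood at 505 and 560 CPM in virgin and at 810 and 1030 CPM in MP untreated libraries. Both MP libraries were higher, by a log2 fold change of 0.79 ± 0.14, with an adjusted p of 0.719 by edgeR and of 2.03e-06 by DESeq2. mt-Nd5, a proton-pumping subunit of complex I, differed by 0.30 ± 0.12, with an adjusted p of 0.719 by edgeR and of 0.0324 by DESeq2. mt-Nd3 stood at 204 and 194 CPM in virgin and at 218 and 444 CPM in MP untreated libraries. It differed by 0.73 ± 0.33 on the log2 scale with an adjusted p of 0.719, and by 0.50 ± 0.14 (adjusted p = 0.72) with its copy added. The value as deposited rested on MP untreated replicate 2, without which mt-Nd3 stood at 0.14. Which MP library was used decided the edgeR calls. Without MP untreated replicate 1, the one high in macrophage markers, mt-Nd3 (1.14, adjusted p = 0.00262) and mt-Atp8 (0.93, adjusted p = 0.0121) passed, while 23 of 16271 genes were called higher and 34 lower. Without MP untreated replicate 2, mt-Atp8 (0.62, adjusted p = 0.0147) and mt-Co3 (-0.59, adjusted p = 0.0164) passed, while 1493 of 16853 genes were called higher and 256 lower, so that 2 of 15 members is near the share of all genes. In these fits the lone MP library is assumed to vary as the others do. mt-Co3 turned to 0.10 ± 0.14 in all 4 libraries once Gm28437 was added.

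S-961 and untreated libraries differed in single mitochondrial genes in opposite directions. In virgin islets edgeR called 3 members higher with S-961, against 18.9% of all genes, and 3 lower, against 17.7%. In MP islets it called 2 higher, against 18.2%, and 5 lower, against 19.5%. Set beside 15 members, 3, 3 and 2 are close to those shares, and only the 5 lower genes in MP islets are above them. The median log2 fold change of the 13 protein genes was -0.29 in virgin and -0.13 in MP islets, beside -0.04 and 0.03 for all genes tested. In 5 members every virgin S-961 library was above the virgin untreated ones and in 6 below, against 32.8% and 35.6% of all genes, and in MP islets 2 were above and 6 below, against 24.5% and 24.5%. Both comparisons come from 1 fit of all 11 libraries and so share an estimate of the spread.

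As deposited, the genes that were higher with S-961 were all for complex I. mt-Nd1, a subunit of its membrane arm, stood at 1751 and 1784 CPM in virgin untreated and at 2931, 2779 and 2689 in virgin S-961 libraries. In MP islets it stood at 1880 and 2192 CPM without and at 2745, 2984, 2316 and 2783 with S-961. No S-961 library reached down to an untreated one. The log2 fold change was 0.66 ± 0.16 (1.58-fold, adjusted p = 0.00762) in virgin and 0.41 ± 0.15 (1.33-fold, adjusted p = 0.0489) in MP islets. mt-Nd1 has no counted copy.

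mt-Nd4, a proton-pumping subunit, stood at 2159 and 2250 CPM in virgin untreated and at 3922, 3719 and 2747 in virgin S-961 libraries, and at 2044 and 2455 CPM in MP untreated and at 3468, 3174, 3248 and 3692 in MP S-961 libraries. Again the S-961 libraries were all higher, by 0.65 ± 0.18 (adjusted p = 0.0177) and 0.59 ± 0.17 (adjusted p = 0.0216). mt-Nd6, the only protein gene read from the other strand, stood at 599 and 634 CPM in virgin untreated and at 916, 832 and 955 in virgin S-961 libraries. It rose by 0.55 ± 0.17 (adjusted p = 0.0301) in virgin islets. In MP islets, where it stood at 514 and 676 CPM without and at 690, 801, 667 and 873 with S-961, the groups overlapped and the difference of 0.35 ± 0.16 did not pass (adjusted p = 0.117). The other large complex I genes, mt-Nd2 and mt-Nd5, passed in neither (0.26 ± 0.16 and 0.38 ± 0.26 in virgin, 0.01 ± 0.15 and -0.14 ± 0.24 in MP islets).

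These higher calls were near the threshold. In virgin islets mt-Nd1 lost it without either untreated library (adjusted p = 0.0760 and 0.0741), mt-Nd4 without any 1 of 4 libraries (0.0613 to 0.128) and mt-Nd6 without any 1 of 4 (0.0702 to 0.177). In MP islets mt-Nd1 lost it without any 1 of 5 libraries (0.0664 to 0.302), and mt-Nd4 without MP untreated replicate 1 (0.18). No higher call passed when the filter on low counts was dropped.

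The largest differences were in 2 short genes. mt-Nd3 stood at 204 and 194 CPM in virgin untreated and at 70.2, 59.8 and 80.4 in virgin S-961 libraries, and at 218 and 444 CPM in MP untreated and at 59.3, 48.0, 36.4 and 52.3 in MP S-961 libraries. It fell by 1.51 ± 0.27 on the log2 scale in virgin islets (to 0.352 of the untreated level, adjusted p = 0.00203) and fell by 2.76 ± 0.25 in MP islets (to 0.148, adjusted p = 8.71e-05). With Gm28438 added the levels were 766 and 790 CPM against 333, 346 and 415 in virgin islets, and 960 and 1244 CPM against 297, 414, 292 and 320 in MP islets. The log2 fold change was then -1.09 ± 0.19 (adjusted p = 0.00149) and -1.74 ± 0.17 (adjusted p = 0.000113).

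mt-Atp8 stood at 505 and 560 CPM in virgin untreated and at 295, 244 and 180 in virgin S-961 libraries, and at 810 and 1030 CPM in MP untreated and at 247, 204, 241 and 264 in MP S-961 libraries. It fell by 1.15 ± 0.20 in virgin islets (to 0.450, adjusted p = 0.00181) and fell by 1.95 ± 0.19 in MP islets (to 0.260, adjusted p = 0.000103). The S-961 libraries of both kinds of mice covered much the same range, and the MP untreated libraries were the highest. mt-Atp8 has no counted copy. It shares 43 bases with mt-Atp6 on the same strand, and no tRNA gene lies between them. With Gm10925 added mt-Atp6 went the other way (0.36 ± 0.15 in virgin and 0.41 ± 0.14 in MP islets). The fall is therefore one of counts on mt-Atp8, and whether a messenger fell was not tested. For mt-Nd3 and mt-Atp8 direction and calls held without any single library and under each other setting tried. The highest adjusted p were 0.0187 (virgin) and 0.00338 (MP) for mt-Nd3 and 0.0255 and 0.00293 for mt-Atp8.

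mt-Nd4l, another small complex I subunit, had an adjusted p under 0.05 as deposited but not with its copy added. It stood at 186 and 176 CPM in virgin untreated and at 99.2, 142 and 62.0 in virgin S-961 libraries, a log2 fold change of -0.84 ± 0.26 (adjusted p = 0.0296, and 0.0793 to 0.136 without any 1 of 3 libraries), and the MP value was -1.19 ± 0.25 (adjusted p = 0.00409). With Gm10222 added the levels were 328 and 336 CPM against 393, 381 and 204 in virgin islets. The groups then overlapped, and the log2 fold change was -0.02 ± 0.27 (adjusted p = 0.956) in virgin and -0.26 ± 0.25 (adjusted p = 0.431) in MP islets.

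Among the complex IV genes, mt-Co1 passed in MP islets on both scales and in virgin islets on neither, and mt-Co2 and mt-Co3 passed only once the copies were added. As deposited, mt-Co1 stood at 13404 and 15717 CPM in MP untreated and at 9342, 9268, 9224 and 10845 in MP S-961 libraries, and it fell by 0.59 ± 0.15 (adjusted p = 0.00945). In virgin islets its log2 fold change was -0.33 ± 0.15 (adjusted p = 0.120). With Gm29216 added both values were smaller, at -0.44 ± 0.14 (adjusted p = 0.032) in MP and -0.28 ± 0.15 (adjusted p = 0.181) in virgin islets. With copies, mt-Co2 fell in virgin (-0.50 ± 0.17, adjusted p = 0.0388) and in MP islets (-0.56 ± 0.16, adjusted p = 0.0184), as did mt-Co3 (-0.52 ± 0.17, adjusted p = 0.0338, and -0.72 ± 0.16, adjusted p = 0.00576). For mt-Co3 the levels with the copy were 6356 and 6429 CPM without and 4513, 3979 and 4862 with S-961 in virgin islets, and 6225 and 7457 against 3688, 4723, 3778 and 4459 in MP islets, with no overlap.

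mt-Cytb fell in MP islets by 0.51 ± 0.15 (adjusted p = 0.0212) and stood at -0.29 ± 0.16 (adjusted p = 0.176) in virgin islets. Without MP untreated replicate 2 neither mt-Co1 (adjusted p = 0.112) nor mt-Cytb (0.207) passed in MP islets, and mt-Cytb turned to 0.07 and mt-Co1 to -0.0028 there when libraries were scaled by total counts alone, a scaling that moved the median of all genes to 0.61. mt-Atp6 had opposite signs as deposited in virgin and MP islets (-0.12 ± 0.23 and 0.21 ± 0.22). With Gm10925 added it stood at 2369 and 2510 CPM against 3323, 3069 and 2982 in virgin islets and was 0.36 ± 0.15 higher (adjusted p = 0.0854), and it rose by 0.41 ± 0.14 (adjusted p = 0.0429) in MP islets. With copies summed, edgeR thus called 3 members higher and 4 lower in virgin islets, against 18.9% and 17.7% of all genes, and 3 higher and 6 lower in MP islets, against 18.2% and 19.5%.

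The rRNA genes did not pass in either by edgeR with all libraries fitted. The log2 fold changes of mt-Rnr1 were 0.13 ± 0.17 in virgin and -0.24 ± 0.16 in MP islets, and those of mt-Rnr2 were 0.31 ± 0.14 (adjusted p = 0.113) and -0.36 ± 0.13 (adjusted p = 0.0513). By DESeq2 mt-Rnr2 had an adjusted p of 0.0325 in virgin and of 0.00932 in MP islets, in opposite directions. In MP islets edgeR called mt-Rnr2 lower without MP S-961 replicate 4 (-0.41, adjusted p = 0.0395). The same held without MP S-961 replicate 3 (-0.39, adjusted p = 0.0323).

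**Figure D4:**
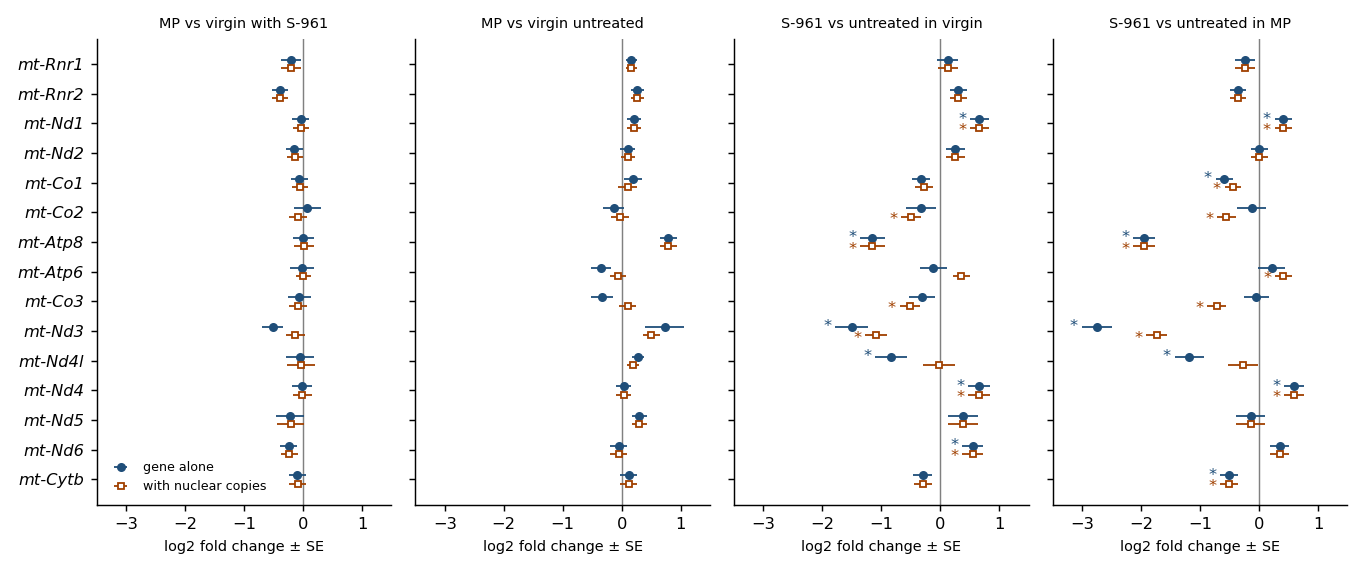
Log2 fold changes of the 15 mitochondrial genes with bars of 1 SE in the 4 comparisons of groups, for the gene alone (filled circles) and with nuclear copies added (open squares); asterisks mark an adjusted p under 0.05 by edgeR. Asterisks appear only in the panels of S-961 against untreated, where mt-Nd3 lies at -1.51 and -2.76 alone and at -1.09 and -1.74 with its copy, and mt-Nd4l moves from -0.84 and -1.19 to -0.02 and -0.26.

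Shares within mitochondrial mRNA alone, which need no scaling between libraries, also differed. They come from the same counts and add up to a fixed total, so a higher share of some genes lowers that of others. Single complex I genes went both ways, with a median log2 fold change of 0.38 in virgin and 0.01 in MP islets. Complex I genes made up 29.6% to 30.4% of mitochondrial mRNA counts in the untreated and 39.6% to 44.0% in the S-961 libraries, and complex IV genes made up 48.6% to 49.5% and 39.3% to 42.8%. The libraries with and without S-961 did not overlap for either, nor did they with the copies added (21.8% to 23.5% against 28.8% to 33.4% for complex I, 57.5% to 59.3% against 47.5% to 52.6% for complex IV). mt-Atp8 made up 1.69% to 2.79% without and 0.671% to 0.941% with S-961. Against mt-Nd1, the other called gene free of counted copies in both kinds of mice, there were 2.13 to 3.47 counts on mt-Nd1 for each count on mt-Atp8 without S-961 and 9.62 to 14.9 with it. For mt-Atp8 and mt-Atp6 together the order depended on the copies: 3.02% to 3.82% without and 1.85% to 2.55% with S-961 as deposited, but 6.64% to 6.92% and 8.12% to 8.97% with Gm10925 added.

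The length of a gene moved with these differences across the whole table. Nuclear protein-coding genes with a longest transcript of 400 to 800 bases (309 genes) had a median log2 fold change with S-961 of -1.08 in virgin and -1.17 in MP islets, those of 800 to 1600 bases (1652 genes) of -0.59 and -0.58, and longer ones (13092 genes) of 0.05 and 0.12. The class up to 400 bases, which is that of mt-Atp8 (204 bases), mt-Nd4l (297) and mt-Nd3 (348), held only 11 nuclear genes. Its medians of -0.63 and -0.66 did not continue the trend. Its quartiles were wide, at -2.32 and 0.77 in virgin and -1.06 and 0.26 in MP islets. mt-Nd6, of 519 bases, rose by 0.55 in virgin islets, where the median of its length class was -1.08. mt-Co1 (1545 bases) and mt-Cytb (1144) stood at -0.59 (-0.44 with its copy) and -0.51 in MP islets. The median of their class there was -0.58. mt-Nd1 (957) and mt-Nd4 (1378), which rose in both, lie in that class too. Fragment sizes are not given in the sources used here, and the part of length in the results was not tested. For parity the same length classes differed little: the 400 to 800 base class had medians of -0.01 with S-961 and 0.11 without.

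**Figure D5:**
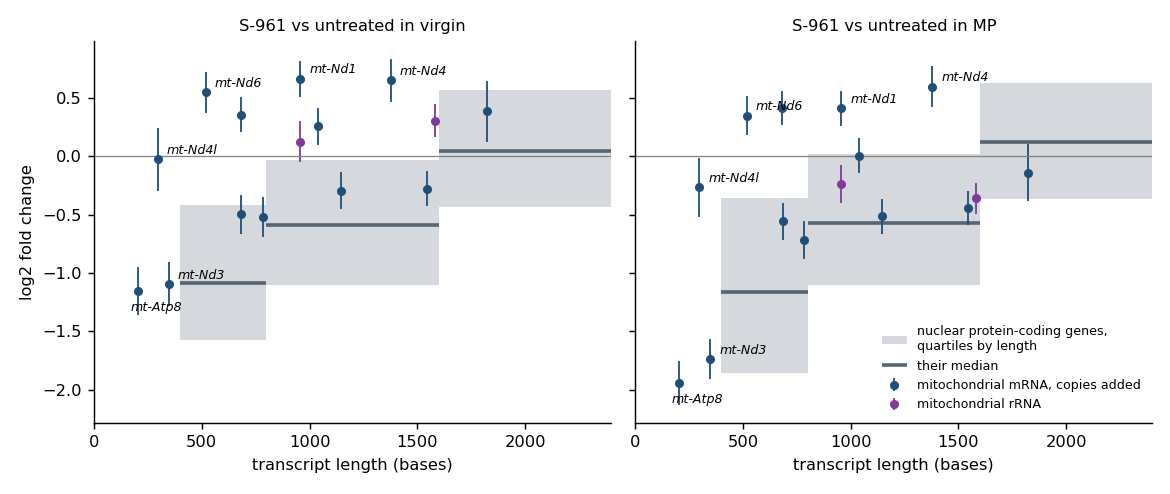
Log2 fold change of S-961 against untreated (vertical axis) by transcript length in bases, in virgin and MP islets. Grey boxes span the quartiles of nuclear protein-coding genes in 3 length classes, the lines in them are medians, and points with bars of 1 SE are mitochondrial genes with copies added; the nuclear medians go from -1.08 and -1.17 at 400 to 800 bases to 0.05 and 0.12 above 1600 bases, mt-Atp8 and mt-Nd3 are lowest, and mt-Nd6 lies above the box of its length class.

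Whether the effect of S-961 differed between virgin and MP islets was tested as an interaction, in the fit that also gives the comparisons above and from the same libraries. edgeR called 0 members and 0% of 17969 genes, in either direction and also with the copies summed. At an unadjusted p under 0.05 there were 1178 genes and 3 members. These were mt-Rnr2 (-0.67 ± 0.19, adjusted p = 0.554), mt-Nd3 (-1.25 ± 0.38, adjusted p = 0.598) and mt-Atp8 (-0.79 ± 0.29, adjusted p = 0.704). With its copy, mt-Nd3 stood at -0.64 ± 0.26. DESeq2 called 1 member, mt-Rnr2 (adjusted p = 0.0264), against 0.121% of all genes called lower. With MP S-961 replicate 4 left out, edgeR called 19 of 17888 genes higher and 26 lower, and none was mitochondrial. The deeper fall of mt-Nd3 and mt-Atp8 in MP islets was therefore not shown to differ from that in virgin islets.

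The nuclear genes that serve the mitochondrial genome were read from 9 lists with 238 genes, picked for their known roles, of which 237 were tested and some stand in more than 1 list. By edgeR 0 were called for parity with S-961, for parity without it or for the interaction, where 3, 15 and 3 had an unadjusted p under 0.05 and DESeq2 called 0, 1 and 1. With S-961, 20 were higher and 114 lower in virgin islets, and 13 higher and 132 lower in MP islets. Of all genes, 18.9% were higher and 17.7% lower in virgin islets and 18.2% and 19.5% in MP islets, and the counts of each list below are to be set beside these shares.

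Among 21 genes of mitochondrial DNA transcription and replication, 3 rose and 7 fell in virgin islets and 2 rose and 9 fell in MP islets, so the share that rose was no higher than that of all genes. The RNA polymerase Polrmt rose by 0.50 ± 0.14 (adjusted p = 0.0194) in virgin and 0.41 ± 0.14 (0.0394) in MP islets, the order kept below, and its initiation factor Tfb2m by 0.80 ± 0.16 (0.00323) and 0.51 ± 0.15 (0.0228). The replicative helicase Twnk fell in both (-0.89 ± 0.12, adjusted p = 0.00044, and -0.99 ± 0.11, adjusted p = 0.000185). Tfam, which packages the DNA and starts transcription, stood at -0.47 ± 0.22 (0.113) and -0.45 ± 0.21 (0.107), and the DNA polymerase Polg at 0.02 and 0.03. Of the other named members, Mterf3 rose in virgin islets (0.51), Mterf4 fell in both (-1.13 and -1.02), and Mgme1 fell in virgin (-1.08) and Mterf1a in MP islets (-1.15).

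Of 32 genes of mitochondrial RNA processing, 9 rose and 4 fell in virgin islets and 5 rose and 5 fell in MP islets. Slirp, which keeps messengers stable together with Lrpprc, fell in both (-1.12 ± 0.24, adjusted p = 0.00455, and -1.59 ± 0.22, adjusted p = 0.000503), while Lrpprc itself stood at 0.33 ± 0.18 (0.174) and 0.05 ± 0.17 (0.849). The RNA-degrading exonuclease Pnpt1 rose by 0.67 ± 0.18 (0.0145) and 0.78 ± 0.18 (0.00619), and its helicase partner Supv3l1 stood at -0.03 and 0.08. The poly(A) polymerase Mtpap stood at 0.30 ± 0.12 (0.0806) and 0.01 ± 0.12 (0.956). Hsd17b10, a subunit of the enzyme that cuts the 5′ ends of transfer RNAs, fell in both (-1.01 and -1.23), the RNA methyltransferases Trmt61b (1.10) and Mrm1 (0.95) rose in virgin islets, and Fastkd1 (0.94) rose in MP islets.

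Translation factors were split, with 3 higher and 4 lower of 14 in virgin and 3 and 5 in MP islets. The elongation factors Guf1 (1.09 and 0.92) and Gfm1 (0.73 and 0.58) rose in both, the peptide release factor Mrpl58 (-0.92 and -1.15) fell in both, and Mtif3 (-0.74) fell in virgin and Mtrf1 (-0.87) in MP islets. Of 20 enzymes that charge mitochondrial transfer RNAs, 3 rose and 5 fell in virgin and 2 rose and 5 fell in MP islets. Sars2 rose (1.06 and 1.05), Fars2 fell (-1.01 and -1.09), and Mars2 (1.05) rose in virgin and Cars2 (0.60) in MP islets.

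Lars2, the enzyme for leucine, differed most. It stood at 365 and 193 CPM in virgin untreated, at 1614 and 1967 in MP untreated, at 91.2, 127 and 110 in virgin S-961 and at 95.3, 113, 69.0 and 95.8 in MP S-961 libraries. With S-961 it fell by 1.35 ± 0.27 (adjusted p = 0.00348) in virgin and fell by 4.26 ± 0.26 (adjusted p = 2.13e-05) in MP islets. Between MP and virgin islets without S-961 the log2 fold change was 2.69 ± 0.35, with an adjusted p of 0.719 by edgeR and of 5.13e-06 by DESeq2, and edgeR called it when either MP untreated library was left out (adjusted p = 0.00262 and 0.00134). The interaction was -2.91 ± 0.39, with an adjusted p of 0.221 by edgeR and of 1.94e-10 by DESeq2. With MP S-961 replicate 4 left out, the only listed gene called between MP and virgin S-961 islets was Primpol, a primase (0.91, adjusted p = 0.0293).

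Nuclear respiratory chain genes were mostly lower with S-961. Of the 38 tested for complex I, 32 fell and 1 rose in virgin islets and 34 fell and 1 rose in MP islets, with median log2 fold changes of -1.05 and -1.26. Nuclear genes of 400 to 800 bases were lower in 52.8% and 58.6% of cases and those of 800 to 1600 bases in 38.0% and 42.3%, beside 26 of the 38 listed genes with at most 1600 bases. The 1 that rose was Ndufs1 (0.36 and 0.44), and Ndufa13 (-2.16 and -2.23) and Ndufa3 (-1.91 and -2.32) fell furthest. For complex III 5 and 6 of 9 fell, led by Uqcrh (-1.95 and -2.14), then Uqcr10 in virgin (-1.41) and Uqcr11 in MP islets (-1.66). For complex IV 9 and 10 of 12 fell, led by Cox7a2 (-1.96 and -1.99) and Cox6c (-1.78 and -1.95), and for the ATP synthase 11 and 12 of 16 fell, led by Atp5k (-2.52 and -2.81) and Atp5e (-1.99 and -1.97). No gene of these 3 lists rose.

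Of 78 mitochondrial ribosomal protein genes, 38 fell and 1 rose in virgin islets and 48 fell and 0 rose in MP islets, with medians of -0.54 and -0.70. Mrps12 rose (1.03) in virgin islets, and Mrps18c (-1.50 and -1.66), Mrps33 in virgin (-1.48) and Mrps21 in MP islets (-1.76) fell. Transcript length differed between the lists. The median longest transcript was 815 bases in the complex IV and 1026 in the complex I list, against 1867 in the ribosomal protein list, where 34 of 78 genes had at most 1600 bases, 2449 in the transcription and replication list and 2642 in the RNA processing list. The part of transcript length in these counts was not tested.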

How the data were processed

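The 11 libraries were TruSeq Stranded mRNA preparations of islet RNA. Per the labels, the authors processed reads with STAR and RSEM on GRCm38 (mm10), with no versions given, and deposited 1 table of expected counts per library, which are not normalized. They were rounded to whole numbers, and genes were kept by filterByExpr (minimum count 10, minimum total 15). edgeR 4.0.16 (R 4.3.3, limma 3.58.1) with TMM scaling gave quasi-likelihood F-tests across all genes, adjusted by Benjamini-Hochberg with a threshold of 0.05. Parity was fitted on the libraries of each comparison, and S-961 and the interaction on all 11. CPM in the text is TMM-normalized over all 11 libraries. For parity, the numbers of genes whose groups did not overlap use CPM scaled within the libraries of each comparison. A fold change with its ± is the log2 value and its standard error. Shares are of all estimated counts.

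Nuclear copies were found by aligning the nuclear GENCODE M21 transcripts to those of the mitochondrial genes with BLAST 2.17.0. The limits were at least 90% identity over at least 50% of the nuclear transcript and an E-value up to 1e-05. Of 55536 genes, 55450 matched that annotation. Adding the copies to their genes was chosen after seeing the data. Alternatives were DESeq2 1.42.0, its size factors, total counts alone, normalization without insulin and mitochondrial genes, no filter, only the compared libraries (or all 11) in the fit, a replicate block and each library left out. The parity fits were also run on simulated counts. Their outcome is not given here, so it does not show how large a difference the untreated comparison could miss. Summaries used Python 3.11.15 (numpy 2.4.6, pandas 2.3.3) and plots matplotlib 3.10.9. Same-group libraries differed by more than sampling noise (chi-square per gene at least 9.41 in 11 pairs).

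Every mitochondrial gene was accounted for. Pathway genes were named where called (at most 2 in each direction per list, by size), with 10 genes that act on mitochondrial DNA or RNA added, and the 3 copies with the most counts. The members and lists were chosen with earlier results of these data known.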

Additional observations from a re-analysis of the deposited data

Results flagged for a closer look

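In the group of 4 MP S-961 libraries, 27 values per library were checked for 1 library far from the other 3, by Dixon's test of the gap to the nearest library over the whole range. Chance alone marks about 1 in 20 such groups, and 3 of the 27 were past the limit. The level of mt-Co1 in MP S-961 replicate 4 was 10845 CPM, above the other 3 at 9224 to 9342. The share of mt-Co1 reads given to its partial copy Gm29216 in MP S-961 replicate 2 was 16.4%, above the other 3 at 12.4% to 13.0%. The share of all counts on the nuclear copies in MP S-961 replicate 1 was 1.18%, below the other 3 at 1.28% to 1.29%.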

How the results depend on the processing

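Of the values and counts that answer a comparison, 117 stayed the same (within 1 SD, or a count within 1.5 times) under alternatives that kept all libraries and 24 moved, and with each library left out 174 stayed and 13 moved. For single genes, 508 values kept direction and side of the threshold under the former, 21 lost the threshold, 21 gained it and 35 changed sign, and with a library left out 434 kept both, 21 lost it, 6 gained it and 34 changed sign. The sign changes were in members with no adjusted p under 0.05, except mt-Cytb in MP islets. What follows gives the sign changes and the values and counts that moved, with single calls lost or gained only in part, and their causes were not tested. For S-961 in MP islets, mt-Nd1 lost its call with DESeq2 size factors (adjusted p = 0.0619) and with insulin and mitochondrial genes left out of normalization (0.057), and mt-Rnr2 gained one under the latter (0.0443). In virgin islets mt-Nd4l lost its call without virgin S-961 replicate 1 (0.0793), virgin untreated replicate 1 (0.136) or virgin untreated replicate 2 (0.108).

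In counts of calls, DESeq2 gave 2 members without S-961 (0 by edgeR) and 1 for the interaction, and 1 listed pathway gene in each, Lars2 both times, as did edgeR with no filter for the interaction (1). With no filter, 3 members were called in virgin and 3 in MP islets for S-961, all lower, and 3 in MP islets when only the MP libraries entered the fit. With a library left out, the members called for S-961 were 2 to 5 in virgin islets (2 without either virgin untreated library, 3 without virgin S-961 replicate 1) and 4 to 8 in MP islets (4 without MP untreated replicate 2), and 0 to 2 for parity without S-961 (2 without either MP untreated library). Listed pathway genes called were 76 to 124 for S-961 in virgin islets (79 and 76 without virgin untreated replicates 1 and 2), and 0 to 1 for parity with S-961, for parity without it and for the interaction (1 without MP S-961 replicate 4 or MP untreated replicate 2, Lars2 both times).

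Scaling by total counts alone moved the median of all genes for S-961 to 0.43 in virgin and 0.61 in MP islets. The median of the protein genes became 0.17 and 0.46, so relative to all genes it stayed lower. Single genes that changed sign under it were mt-Co1 0.14, mt-Co2 0.13, mt-Atp6 0.34, mt-Co3 0.14 and mt-Cytb 0.17 in virgin islets, and mt-Rnr1 0.35, mt-Rnr2 0.23, mt-Co2 0.46, mt-Co3 0.54, mt-Nd5 0.45 and mt-Cytb 0.072 in MP islets. For parity they were mt-Nd1 0.017, mt-Co1 0.0022, mt-Atp6 0.056, mt-Co3 0.0044 and mt-Nd4 0.041 with S-961 and mt-Nd4 -0.019 without, and mt-Nd4 0.060 for the interaction. With the nuclear copies summed, the virgin S-961 median became -0.024, and the sign changed for mt-Atp6 in virgin islets (0.36), for mt-Co2 (-0.077) and mt-Atp6 (0.0063) between MP and virgin S-961 islets, for mt-Co3 (0.10) without S-961, and for mt-Co2 (-0.058) and mt-Co3 (-0.19) in the interaction. Values near 0 changed sign for mt-Atp8 between MP and virgin S-961 islets (-0.0039 by DESeq2, -0.0039 with its size factors, -0.0015 with no filter, -0.0049 with all 11 libraries fitted, -0.023 with the replicate block), and for S-961 in MP islets for mt-Nd2 (-0.0049 by DESeq2, -0.0049 with its size factors, -0.016 with insulin and mitochondrial genes left out of normalization, -0.0096 with the block) and mt-Co3 (0.0028 with no filter).

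The share of counts on mitochondrial genes, as a difference in percentage points, was 0.50 between MP and virgin untreated, 0.17 for S-961 in virgin and -0.49 in MP islets without insulin counts, and 0.54, 0.19 and -0.53 as a ratio to counts without insulin and mitochondrial genes. Within mitochondrial mRNA, adding copies gave differences for complex I of 1.25 points between MP and virgin untreated, 9.67 for S-961 in virgin and 7.84 in MP islets, for mt-Nd4 of 4.13 in MP islets, and for mt-Atp8 of -0.62 in virgin and -1.30 in MP islets, and mt-Atp8 summed with mt-Atp6 gave -1.43 in MP islets.

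Leaving out each library, log2 fold changes that crossed 0 ranged, between MP and virgin S-961 islets, over -0.081 to 0.028 for mt-Nd1, -0.12 to 0.23 for mt-Co2, -0.16 to 0.18 for mt-Atp8, -0.17 to 0.20 for mt-Atp6, -0.23 to 0.096 for mt-Co3, -0.31 to 0.27 for mt-Nd4l and -0.15 to 0.079 for mt-Nd4. Without S-961 they ranged over -0.012 to 0.19 for mt-Nd2, -0.37 to 0.049 for mt-Co2, -0.095 to 0.13 for mt-Nd4, -0.25 to 0.11 for mt-Nd6 and -0.010 to 0.22 for mt-Cytb. For S-961 the ranges were -0.33 to 0.090 for mt-Atp6 in virgin islets, and -0.11 to 0.14 for mt-Nd2, -0.33 to 0.12 for mt-Co2, -0.27 to 0.23 for mt-Co3 and -0.29 to 0.0054 for mt-Nd5 in MP islets. For the interaction they were -0.0010 to 0.46 for mt-Co2, -0.20 to 0.086 for mt-Nd4 and -0.38 to 0.018 for mt-Nd6.

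Whether the replicate numbers pair the libraries is not given in the sources used here. Correlations of same-numbered libraries, as deviations from group means, were 0.212, -0.185 and -0.0738 between virgin and MP S-961. Between the untreated groups they were 0.264. With S-961 not every library correlated best with its own number. The untreated value cannot decide, because with 2 libraries per group the other pairs can only give -0.264. With the replicate block the members called were 0, 0, 5, 6 and 0 for the 5 comparisons in the order of the report. For parity with S-961 the block called 311 of 16752 genes higher and 35 lower. Its level for replicate 4 holds only MP S-961 replicate 4. Under the block mt-Nd6 in virgin islets (adjusted p = 0.0533) and mt-Nd1 (0.0821) and mt-Cytb (0.0561) in MP islets lost the threshold, mt-Rnr2 in MP islets gained it (0.0458), and mt-Rnr1 in virgin islets stood at -0.011. Depth limits no statement on the 15 counted members, and for the 22 tRNA genes it allows none below the limit given.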
